A study of Mus musculus with 8 samples.

Results

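Accessible chromatin on mouse chromosomes 2 and 5 was not spread in the same way in EpH4 cells and in their H-Ras-transformed derivative, EpRas cells. All accessible regions of these chromosomes were taken as members. The peaks of 8 libraries were merged wherever they overlapped by at least 1 bp, which gave 5068 regions on chromosomes 2 and 5 out of 37230 in the genome (2802 on chromosome 2 and 2266 on chromosome 5). The chromosomes had been chosen by the peak counts of these same libraries, because the ratio of EpRas to EpH4 peaks differed between the sides of their midpoints, at 91.1 Mb and 75.9 Mb. Every contrast between the lines given here is therefore a description and carries no test. Only the contrast of TGF-β with no treatment, which did not enter the choice, was tested.

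The study used formaldehyde-assisted isolation of regulatory elements with sequencing (FAIRE-seq), which enriches the DNA left free of protein after crosslinking. Untreated EpH4 and EpRas cells, and cells of either line given 1 ng/ml TGF-β3 for 8 days, made up 4 groups of 2 libraries, which the study's methods call biological replicates. EpH4 is a mammary gland epithelial line, and EpRas is that line transformed with H-RasG12V. The EpH4 medium held 10% serum against 4% for EpRas, so that line and serum cannot be told apart. Whether EpRas is 1 clone was not given in the sources used here. The lists held 10821 to 27337 peaks, and the number of reads behind them was unknown. As a check of the label, the promoter of Cdh1, the epithelial cadherin, carried a peak in 4 of 4 EpH4 and 0 of 4 EpRas libraries, and that of the basal keratin gene Krt14 in all 8. The luminal keratin genes Krt8 and Krt18 had one in 5 and 3 of the 8 libraries. The other basal keratin gene looked at, Krt5, had none, so the basal keratins did not go together. The epithelial gene Epcam, the leukocyte gene Ptprc and the endothelial gene Pecam1 had none either.

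Open chromatin marks promoters and enhancers, where transcription factors displace nucleosomes. In mammary epithelium many enhancers carry binding sites of AP-1, a dimer of Jun and Fos proteins that acts downstream of Ras and other growth factor signals. Because a segment of a chromosome present in more copies yields more fragments at every open site on it, more DNA and more open chromatin per copy of that DNA cannot be told apart in a peak list.

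The regions called in all 4 libraries of one line and in none of the other were ranked by their score percentile, the rank of a peak's score among the peaks of its library. Of the 5 leading regions in each direction on each chromosome, 8 held the AP-1 consensus TGAGTCA, searched on both strands. They are shown as the sites with the consensus among these leading regions, and regions ranked lower are not shown. Capitals mark the consensus within 29 bases, written 5′ to 3′ on the strand that reads TGAGTCA (GRCm38, the build of mm10).
Cdk14 intergenic, EpRas alone, chr5:5420338-5420366, minus strand: ggtcagtgtggTGAGTCAgaagtgactaa
Sema3a intron, EpRas alone, chr5:13365299-13365327, minus strand: aagtcagtgtcTGAGTCActatgactgtt
Sema3a locus at the Gm42676 promoter, EpRas alone, chr5:13527353-13527381, plus strand: gaaatggtatgTGAGTCAtcactccactt
Prkag2 intron, EpRas alone, chr5:24871484-24871512, minus strand: cctgtggtggaTGAGTCAggtctgtgagg
Hps4 locus at the Gm43759 promoter, EpRas alone, chr5:112368094-112368122, minus strand: ttcccagaggcTGAGTCAccggagacaga
Fam83c intergenic, EpH4 alone, chr2:155839178-155839206, plus strand: gccaagtgaacTGAGTCAgagccactggt
Lnx1 intergenic, EpH4 alone, chr5:74738447-74738475, plus strand: agagggcacctTGAGTCAaagggacaggg
Vsig10 intron, EpH4 alone, chr5:117330595-117330623, plus strand: ggtatgtgaccTGAGTCAcattaccttgg

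The consensus stood in the 500 bp around the midpoint of 46.7% of all distal regions, those more than 2 kb from any transcription start site. On the segments described below the share was 41.4% to 51.4%. Of the leading regions of chromosome 5, 5 of 5 EpRas-restricted and 2 of 5 EpH4-restricted ones held it. On chromosome 2 the counts were 0 of 5, of which 3 were promoters, and 1 of 5. The share among line-restricted regions as a whole was not compared.

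Both sides of chromosome 2 took a larger share of the peaks in EpRas than in EpH4 cells, and both sides of chromosome 5 a smaller one. On the centromere side of chromosome 2 the share was 1.90%, 2.01%, 1.99% and 1.40% in the EpH4 libraries (untreated replicates 1 and 2, then TGF-β replicates 1 and 2). It was 3.06%, 2.77%, 3.09% and 2.91% in the EpRas libraries, in the same order. The groups did not overlap, and the ratio of EpRas to EpH4 means was 1.62. On the telomere side the shares were 4.04%, 4.19%, 4.18% and 4.16% in EpH4 and 4.88%, 4.85%, 4.64% and 4.82% in EpRas cells, with a ratio of 1.16. The Wilson 95% interval of the first of these libraries on the centromere side, 1.68% to 2.16%, shows the counting error within a list, which does not include the spread between libraries.

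Chromosome 5 went the opposite way and differed mostly on the telomere side. Its centromere side held 2.79%, 2.78%, 2.50% and 2.59% of EpH4 peaks and 2.48%, 2.42%, 2.40% and 2.42% of EpRas peaks, with a ratio of 0.911. Its telomere side held 4.92%, 4.93%, 4.60% and 4.98% in EpH4 and 3.28%, 3.09%, 3.22% and 2.98% in EpRas cells, with a ratio of 0.647. The 4 chromosome sides thus separated the lines in every library. Over the 40 sides of the 20 chromosomes, 40% had all EpRas libraries above and 27.5% all below the EpH4 libraries, so that separation by itself was common.

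The contrast between the sides was large for these chromosomes. The log2 ratio changed by 0.49 across the midpoint on both, which ranked them behind chromosome X (0.86, over 1338 peaks) and ahead of the other 17. The median of the 20 chromosomes was 0.16. Within chromosome 2, the centromere side held 30.4% ± 3.5 of the peaks in EpH4 and 38.1% ± 1.5 in EpRas libraries (SD, n = 4 each). Within chromosome 5 it held 35.4% ± 0.92 and 43.6% ± 0.95.

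The midpoints were not where the lines changed. When the chromosomes were divided into bins of 10 Mb, all 19 bins of chromosome 2 separated the lines, 14 with EpRas higher and 5 with EpRas lower. Over the 272 bins of the genome with at least 10 peaks, 27.9% had all EpRas libraries above and 21% all below the EpH4 libraries. The first bin had a log2 ratio of -0.35. The next 14 bins, up to 150 Mb, were all higher in EpRas cells, by 0.69 to 1.25. The last 4 bins were lower, by -0.11 to -0.65. At the midpoint itself the ratio did not turn: bin 10, which holds it, had a log2 ratio of 0.95, and the bins before and after it 1.25 and 0.69.

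The bins with the highest and the lowest log2 ratio of chromosome 2, 1.25 and -0.65, show the extremes of this change and not its typical size. The ninth bin, just before the one that holds the midpoint, took 0.0642%, 0.0535%, 0.0614% and 0.0370% of the peaks of the EpH4 libraries. It took 0.134%, 0.123%, 0.139% and 0.119% of those of the EpRas libraries. The lowest EpRas library was above the highest EpH4 library. The ninth bin held 128 peaks over all libraries, so its EpH4 shares rest on few peaks. In bin 17, the richest of the chromosome, the shares were 1.24%, 1.21%, 1.12% and 1.31% in EpH4 and 0.825%, 0.834%, 0.699% and 0.737% in EpRas libraries. There the order was turned around, again without overlap.

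**Figure D1:**
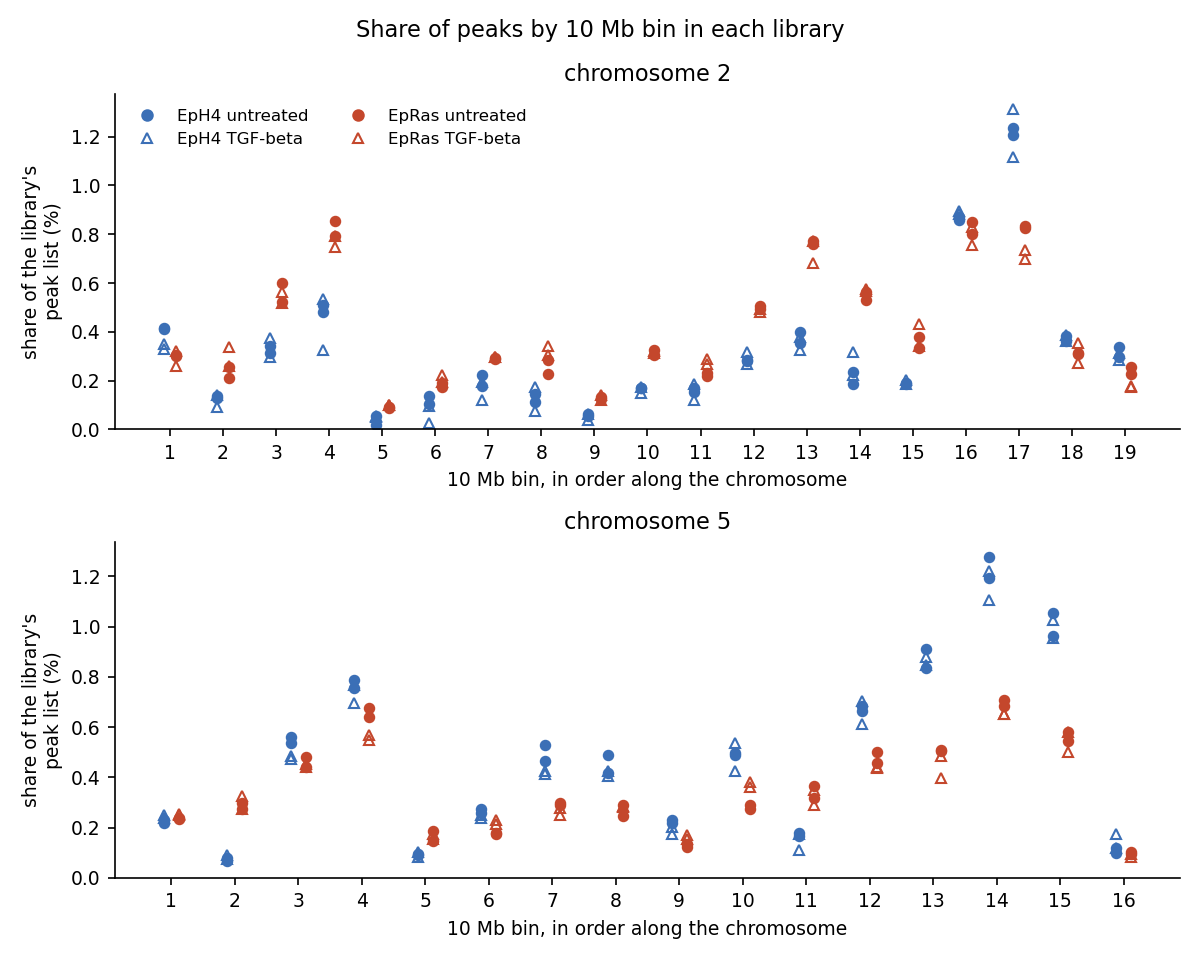
Share of each library's peak list (%, y axis) in consecutive 10 Mb bins (x axis) of chromosomes 2 and 5. Circles are untreated and triangles TGF-β-treated libraries, with EpH4 in blue and EpRas in red. On chromosome 2 the red symbols lie above the blue ones from bin 2 to bin 15 and below them in bins 1 and 16 to 19, and on chromosome 5 the order alternates, with EpRas above EpH4 in bins 2, 5 and 11.

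Chromosome 5 was a mosaic. Of its 16 bins, 3 were higher in EpRas cells, 10 were lower and 3 overlapped. The second bin (10 to 20 Mb) differed most among all members. It held 0.0802%, 0.0687%, 0.0893% and 0.0739% of EpH4 peaks and 0.273%, 0.297%, 0.274% and 0.327% of EpRas peaks, a ratio of 3.75. Bins 5 and 11 were the other raised ones, with log2 ratios of 0.82 and 1.08, and the neighbors of bin 11 stood at -0.57 and -0.54. Bins 13 to 15 were the lowest, with log2 ratios of -0.83 to -0.87. A bin with a log2 ratio of at least 0.5 in size was found in 26 of 35 cases on the 2 chromosomes (74.3%) and in 76 of 237 elsewhere (32.1%).

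To find the borders, a difference in calls was computed for every region, the share of EpRas libraries with a peak minus that of EpH4 libraries. Steps were then placed along the order of regions by least squares, each having at least 10 regions on either side. Another step was added as long as it removed 1% more of the sum of squares. This rule was adopted after the bins had been seen. Chromosome 2 had 2 steps, at 7.0 Mb and 152.78 Mb, which removed 19.2% of the sum of squares. Chromosome 5 had 5 steps, at 24.46, 33.95, 51.96, 93.29 and 113.93 Mb, which removed 23.2%.

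Borders close to these were found in the untreated and in the TGF-β-treated libraries taken separately. On chromosome 2 they fell at 7.03 and 152.78 Mb without treatment and at 6.66 and 152.88 Mb with TGF-β. On chromosome 5 the last 2 borders were at 93.28 and 113.93 Mb without and at 93.29 and 113.80 Mb with TGF-β, while the first was at 23.41 and 24.46 Mb and the second at 34.55 and 33.95 Mb. The settings were either treatment alone, as just given, 1 library left out at a time, and fewer peaks. Each of the 7 borders was met again within 2 Mb in 12 of 12 of them. The number of steps on chromosome 5 was 6 without TGF-β-treated EpRas replicate 1, and that on chromosome 2 was 3 with lists of equal length or with higher-scored peaks alone. Of the other 18 chromosomes, 9 had no step by this rule. Chromosome X had 6 steps that removed 27.3% of its sum of squares, and on the remaining 17 the most that steps removed was 5.77%.

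**Figure D2:**
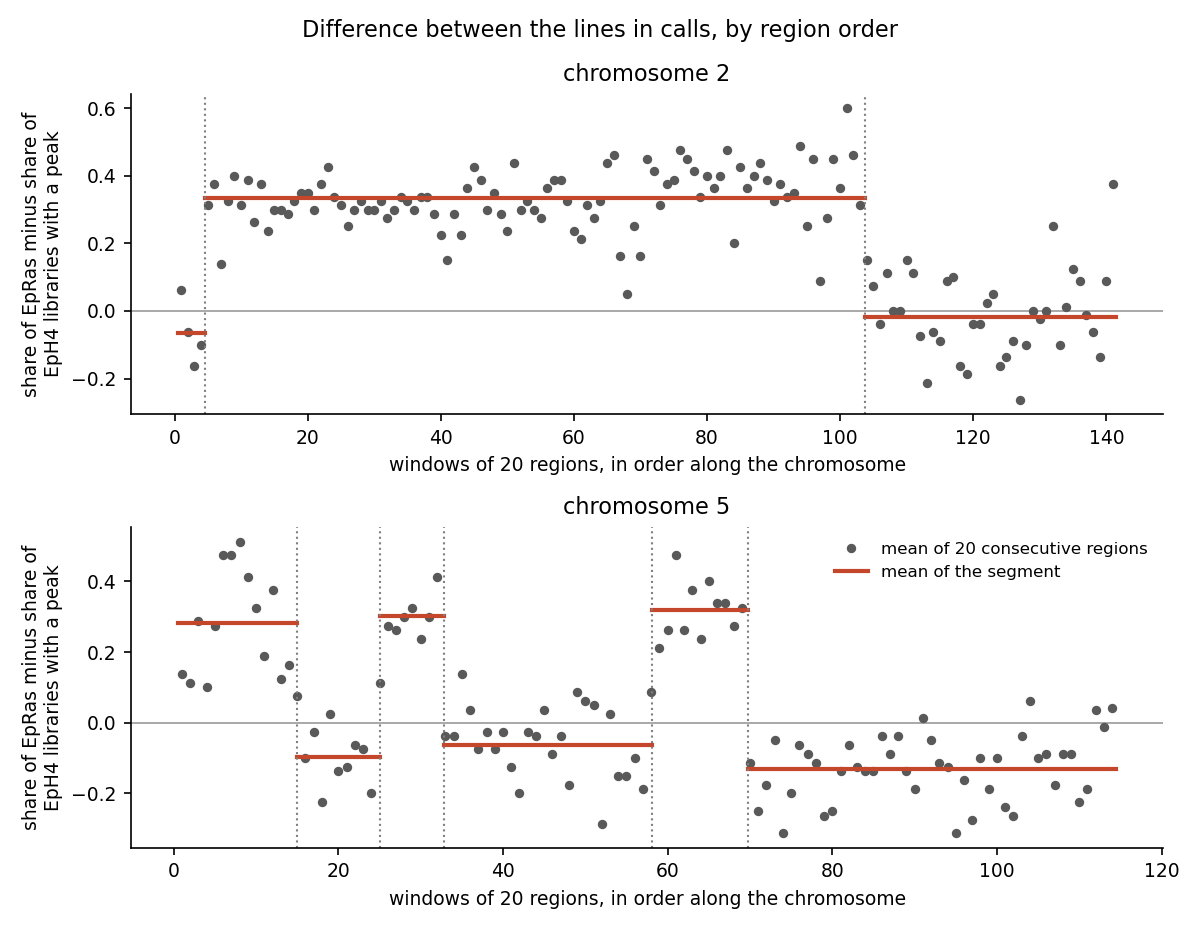
Difference between the lines in calls along chromosomes 2 and 5. The y axis is the share of EpRas libraries minus the share of EpH4 libraries with a peak, points are means of 20 consecutive regions in their order along the chromosome (x axis), red lines are means of the segments and dotted lines are the steps. The mean stays near 0.33 over the long middle segment of chromosome 2 and lies between 0.28 and 0.32 in the 3 raised segments of chromosome 5, with -0.13 to -0.06 between them.

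The 7 borders divide the chromosomes into 9 segments, numbered from the centromere, and each segment separated all EpRas from all EpH4 libraries. Since the borders were drawn from these calls, this is a description. Segment 2 of chromosome 2 spanned 80.0% of the chromosome and held 1982 regions. It took 2.82%, 3.06%, 3.29% and 2.34% of EpH4 peaks against 5.74%, 5.33%, 5.75% and 5.64% of EpRas peaks, with a ratio of 1.95. Segment 3, from 152.78 Mb to the telomere with 737 regions, took 2.71%, 2.76%, 2.58% and 2.88% against 1.97%, 2.06%, 1.79% and 1.84%, with a ratio of 0.701. The short segment 1 had 83 regions and a ratio of 0.635.

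On chromosome 5 segments with a ratio above 1 (raised) and below 1 (lowered) followed one another. Segments 1, 3 and 5 had ratios of 1.48, 1.59 and 1.92. Segments 2, 4 and 6 had ratios of 0.590, 0.619 and 0.551. Segment 5, which holds Spp1, took 0.345%, 0.336%, 0.324% and 0.286% of EpH4 peaks and 0.662%, 0.559%, 0.666% and 0.588% of EpRas peaks. Segment 6, the largest with 882 regions, took 3.74%, 3.79%, 3.53% and 3.88% of EpH4 peaks and 2.17%, 2.10%, 2.06% and 1.90% of EpRas peaks. Segment 1 was not uniform, as its first 10 Mb had a log2 ratio of 0.06 with overlapping lines and the next 10 Mb one of 1.91.

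**Figure D3:**
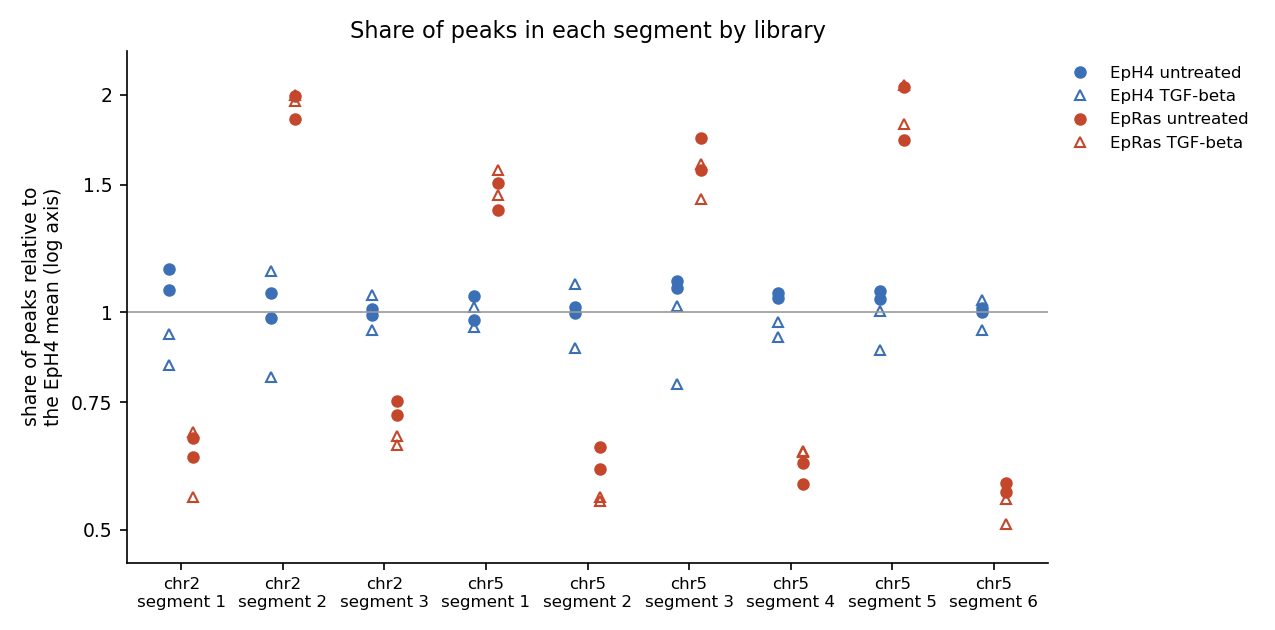
Share of peaks in each of the 9 segments, divided by the mean of the 4 EpH4 libraries (y axis, log scale, 1 is the EpH4 mean), with 1 symbol per library. EpRas libraries lie near 0.5 to 0.8 in chr2 segments 1 and 3 and chr5 segments 2, 4 and 6, and near 1.4 to 2.1 in the other 4, without overlap with EpH4 in any segment.

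Peak scores differed between most of the same segments at regions that were open in every library, where a call could not be gained or lost. There were 521 such regions, 243 on chromosome 2 and 278 on chromosome 5. At each, the mean score percentile in EpH4 libraries was subtracted from that in EpRas libraries. The median shift over the 4259 such regions of the genome was 5.68 points. It was 27.9 points in segment 2 of chromosome 2, where 76 of 81 regions had a higher percentile in EpRas cells. It was -1.34 in segment 3, over 139 regions, and -12.5 in segment 1, with 4 of 23 regions higher.

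On chromosome 5 the medians were 35.5 points in segment 3 (10 of 11 regions higher) and 39.7 in segment 5 (9 of 10). In segments 2, 4 and 6 they were -8.54, -7.53 and -9.15. Segment 1 was the exception, since its peaks were more numerous in EpRas cells while its 20 shared regions had a median shift of -0.45, with 10 of 20 higher. By chromosome side the medians were 7.62 and 1.11 on chromosome 2 and -3.50 and -8.51 on chromosome 5, so that sides hid most of the contrast. The first of these, 7.62, was 0.0092 with lists of equal length and 0.97 when scores were ranked among shared regions alone, and with 1 library left out it ranged from 6.17 to 14.8. With lists of equal length the genome median fell to 1.08 and the telomere side of chromosome 2 stood at -3.82, and among higher-scored peaks alone its centromere side stood at -2.54. A single step in the shift fell at 150.74 Mb on chromosome 2, between shared regions at 148.67 and 152.81 Mb, and removed 21% of the sum of squares. No other chromosome with enough shared regions exceeded 11.8%, and on chromosome 5 a single step, at 115.22 Mb, removed 6.14%. Neither place was sharply located. Over the 16 pairs of 1 EpRas and 1 EpH4 library, the single step of chromosome 2 ranged from 11.5 to 155.6 Mb. In 6 of the 16 pairs it was within 2 Mb of 150.74 Mb. That of chromosome 5 ranged from 53.5 to 119.1 Mb, with 7 of 16 pairs within 2 Mb of 115.22 Mb. With 2 steps in the shift they fell at 23.6 and 150.74 Mb on chromosome 2, the first far from the border at 7.0 Mb, and at 94.51 and 112.51 Mb on chromosome 5.

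**Figure D4:**
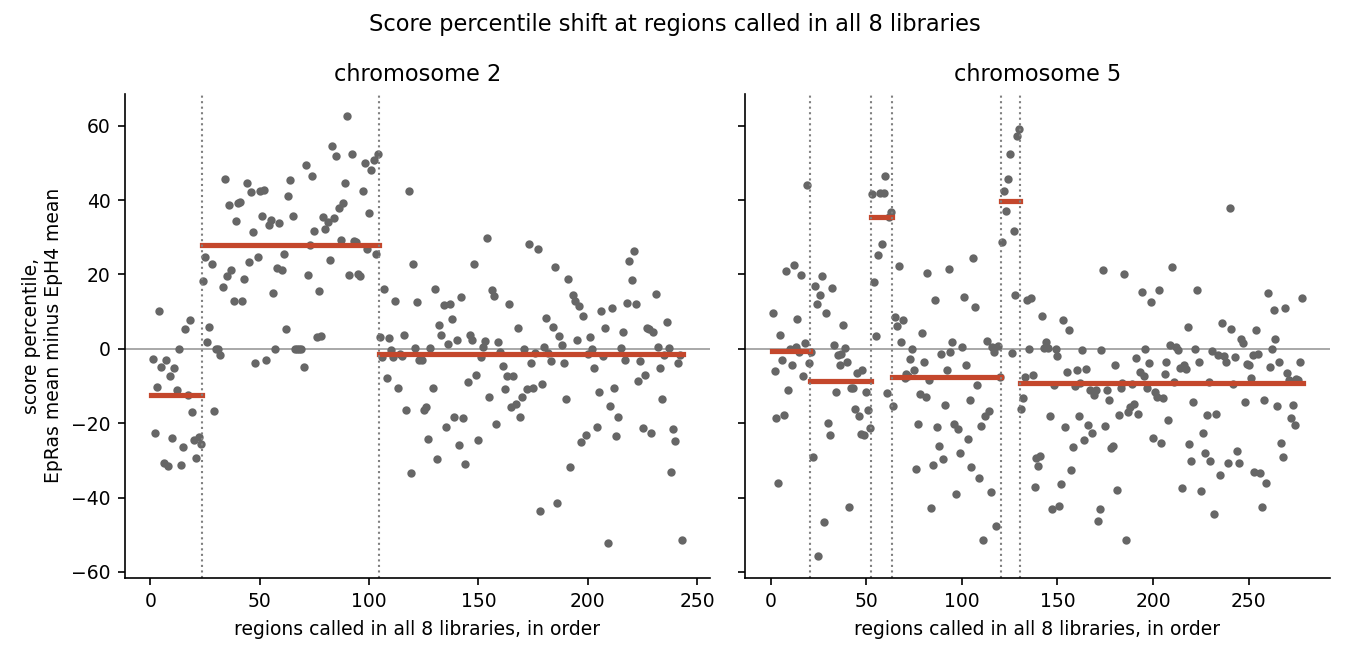
Score percentile shift (EpRas mean minus EpH4 mean, in points, y axis) at the 243 regions of chromosome 2 and the 278 of chromosome 5 called in all 8 libraries, in their order along the chromosome (x axis). Red lines are segment medians and dotted lines the borders found from calls. The median rises from -12.5 to 27.9 and returns to -1.34 on chromosome 2, and stands at 35.5 and 39.7 in 2 short segments of chromosome 5.

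At promoters the lines were set against their own genome. Over all 21755 protein-coding genes, 23.3% ± 3.8 had a promoter peak in EpH4 and 29.2% ± 5.0 in EpRas libraries (SD, n = 4 each). In segment 2 of chromosome 2 the share was 10.5%, 11.5%, 15.6% and 6.99% in the EpH4 libraries and 28.0%, 22.6%, 32.6% and 22.9% in the EpRas libraries. The EpH4 libraries thus lay below the share of their own genome, and the mean of the EpRas libraries, 26.5%, lay within 1 SD of theirs. This segment holds 294 genes of the olfactory and vomeronasal receptor families, which act mainly in sensory neurons. Without such genes the shares were 14.1% ± 4.5 and 33.5% ± 6.0, against 25% ± 4.0 and 31.3% ± 5.3 over the genome.

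Unlike the peak shares, the promoter shares are not divided by list length. Since they were 23.3% in EpH4 and 29.2% in EpRas cells over the genome, an equal share in a segment is lower for EpRas cells relative to their genome. In segment 5 of chromosome 5, 6.5%, 8%, 11% and 7% of 200 genes had a promoter peak in EpH4 libraries and 20%, 14%, 25% and 15% in EpRas libraries. Segment 3 had 15.3% in EpH4 and 28.9% in EpRas cells. The gene-rich segment 6 had 44.9% and 37.5%, with overlapping libraries. Segment 3 of chromosome 2, with a peak ratio of 0.701, had 33.6% in both lines. Segment 1 of chromosome 2, with a peak ratio of 0.635, had 47.7% in EpH4 and 46.9% in EpRas cells. These shares also move with list length, and in the longest list of each line they were the highest or tied for it in every segment except segment 1 of chromosome 2.

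**Figure D5:**
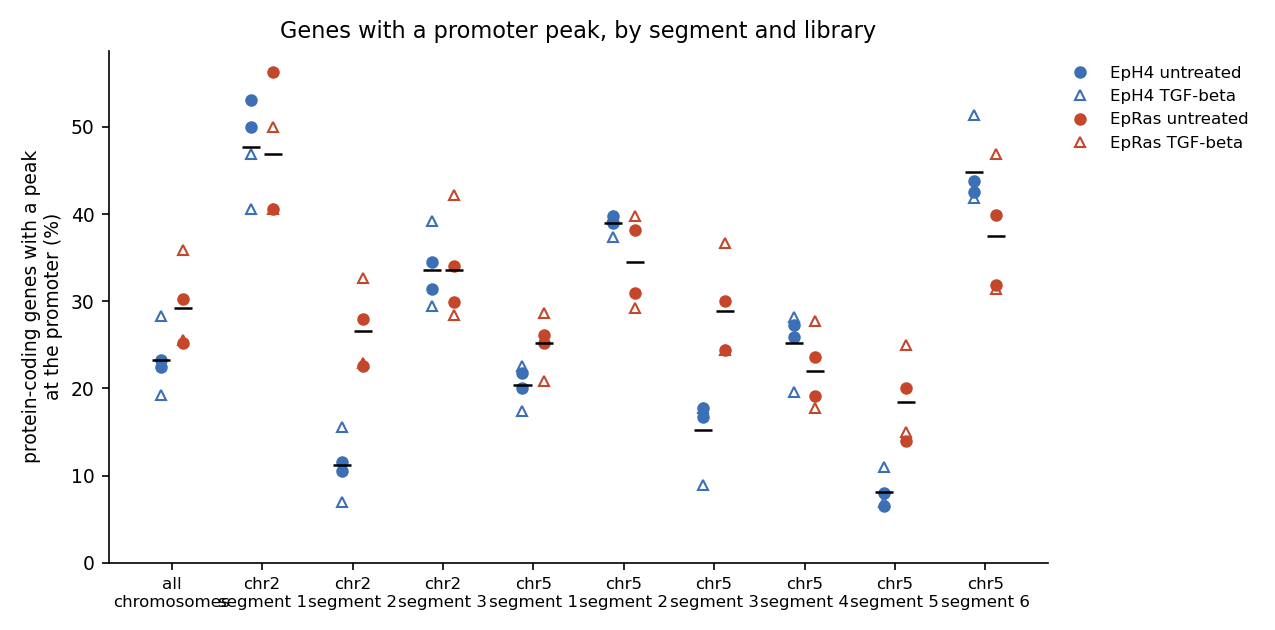
Protein-coding genes with a peak within 2 kb of a transcription start site (%, y axis) over all chromosomes and in each segment (x axis). Symbols are libraries and short black lines the means of 4. In chr2 segment 2 EpH4 libraries lie between 6.99% and 15.6% and EpRas libraries between 22.6% and 32.6%, whereas in chr2 segment 3 both lines have a mean of 33.6%.

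The promoters of 36 protein-coding genes in segment 2 of chromosome 2 carried a peak in all 4 EpRas and in 0 of 4 EpH4 libraries, and 0 genes there showed the reverse. Over the genome 0.579% of protein-coding promoters were of the first and 0.133% of the second kind, so this segment held 36 of 126. Its borders were drawn from the same calls, so these counts are a description. Examples, chosen after their values were seen, were Bub1 of the spindle checkpoint, Anapc2 of the anaphase-promoting complex, Dut, which removes dUTP, Cat, which encodes catalase, Timm10 of mitochondrial protein import, Srp14 of the signal recognition particle and Vav2, an exchange factor of small GTPases. On chromosome 5 the genes of the first kind were Lcorl and Wdr1 in segment 3 and Gtpbp6 and Spp1 in segment 5. Those of the second kind were Rbbp8nl, Fndc11 and Slpi in segment 3 of chromosome 2, and Abcb1b, Xrcc2, Rbm47, Hspb1 and Pilrb1 on chromosome 5. Slpi encodes a secreted protease inhibitor of epithelia, and Rbm47 an RNA-binding protein.

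Single regions that separated the lines were also counted by segment. The segments were drawn from the calls of these same regions, so this distribution is a description and no further support. On both chromosomes together, 136 regions were restricted to EpRas cells (4 of 4 EpRas and 0 of 4 EpH4 libraries) and 53 to EpH4 cells. These are 2.68% and 1.05% of the members, against 1.98% and 0.752% of all regions. Of the 136, 101 lay in segment 2 of chromosome 2, where 4 EpH4-restricted regions were found. The raised segments 1, 3 and 5 of chromosome 5 held 26 EpRas-restricted regions and 1 EpH4-restricted region among 677 regions. In the lowered segments of both chromosomes the counts were 9 and 48 among 2409 regions. With the full lists the EpRas- and EpH4-restricted regions were 106 and 20 on chromosome 2 and 30 and 33 on chromosome 5. With lists of equal length they were 41 and 23 on chromosome 2 and 10 and 60 on chromosome 5. At equal length the share over all regions was not counted, so these values cannot be set against the genome. Leaving 1 library out relaxes the rule for its line, so the counts that follow can hardly fall. Without untreated EpRas replicate 2 the EpRas-restricted regions were 195 on chromosome 2 and 63 on chromosome 5, and without TGF-β-treated EpH4 replicate 1 they were 49 on chromosome 5. The EpH4-restricted regions of chromosome 5 were 50 without TGF-β-treated EpRas replicate 1 and 56 without TGF-β-treated EpH4 replicate 2, and those of chromosome 2 were 33 without untreated EpH4 replicate 2.

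The region with the highest scores among the EpRas-restricted ones of chromosome 2 was the promoter of Ivd (chr2:118861707-118862083), which encodes the isovaleryl-CoA dehydrogenase of leucine breakdown. It lay at percentiles of 61.8, 90.3, 96.3 and 93.0 in the 4 EpRas lists. The promoters of Polr1b, a subunit of RNA polymerase I, and of Mgme1, a nuclease of mitochondrial DNA, followed, along with a coding exon of Vinac1 and an intergenic region 696 kb from Lrrc4c. The leading EpH4-restricted regions of this chromosome were all in segment 3. The promoter of Rbbp8nl (chr2:180289798-180290108) lay at percentiles of 97.4, 79.5, 92.3 and 74.4, and that of Fndc11 at 81.9, 95.3, 81.7 and 78.3. The intergenic region 4.27 kb from Fam83c was also among them.

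Of the 5 leading EpRas-restricted regions of chromosome 5, 3 lay in segment 1, with 2 of them inside Sema3a, which encodes a secreted semaphorin. The intronic one (chr5:13364915-13365506) lay at percentiles of 85.6, 84.1, 90.1 and 91.2. The region in the intron of Prkag2, a regulatory subunit of AMP-activated kinase, was the only EpRas-restricted region of segment 2 and lay just inside its border. The promoter of the same gene (chr5:24995776-24996107) was called in all 8 libraries and had the lowest shift of the chromosome, -55.7 points. It stood at percentiles of 94.1, 95.4, 73.9 and 91.9 in EpH4 and 13.9, 50.5, 38.7 and 29.5 in EpRas libraries. Neighboring sites of 1 gene therefore differed in opposite directions.

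Among the EpH4-restricted regions of chromosome 5, the promoter of Lnx1, an E3 ubiquitin ligase gene, lay at percentiles of 89.5, 95.1, 75.1 and 64.2, and a region 35.6 kb away at 94.9, 96.7, 66.0 and 56.1. Both were in segment 4. The highest shifts at shared regions were at the promoter of Chek2, a DNA damage checkpoint kinase (59.1 points, segment 5), and in an intron of Mall, which encodes a membrane raft protein (62.7 points, segment 2 of chromosome 2). The Chek2 promoter stood at 49.2, 5.14, 50.6 and 25.6 in EpH4 and at 95.9, 81.5, 98.8 and 90.7 in EpRas libraries, without overlap.

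The border at 152.78 Mb on chromosome 2 lies within the locus of Bcl2l1, which encodes the survival protein Bcl-xL. The last shared regions before it were an intergenic one (chr2:148521873-148522557) and the Nxt1 promoter, with shifts of 25.5 and 52.4 points. The first after it were one in an intron of Bcl2l1 and the Tpx2 promoter, with shifts of 3.29 and -2.29. The Nxt1 promoter stood at 29.1, 49.8, 2.94 and 15.2 in EpH4 and at 70.8, 76.0, 73.3 and 86.5 in EpRas libraries. At the Tpx2 promoter the libraries stood between 86.1 and 99.01. Around the single step of chromosome 5 the shifts were 0.02 at the Oasl1 promoter, 13.8 at that of Mlec, -7.16 at that of Rnf10 and -37.1 near Dynll1.

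Listed genes, mainly of mammary, TGF-β and Ras biology, were read at their loci, the gene with 20 kb on each side. The list was drawn up with earlier results of these data known. Of 54 listed genes on the chromosomes, 43 had a region. The number of regions was higher in all EpRas than in all EpH4 libraries for 4 and lower for 2. Over the 15741 protein-coding loci with a region in the genome, 4.25% and 0.565% were so. The mean was higher in EpRas cells for 18 of the 19 genes in raised segments and for 4 of the 24 in lowered ones, and it was lower for 1 and 17. The segments were drawn from the same calls, so these counts are a description and no separate support. Bcl2l1, whose locus holds a border, was counted as lowered.

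The 4 genes with higher counts all lay in raised segments. Acvr1, a type I receptor of bone morphogenetic proteins (BMPs), had 0, 1, 0 and 0 regions in the EpH4 libraries and 3, 4, 4 and 4 in the EpRas libraries. Spp1, which encodes the secreted matrix protein osteopontin, had 0 regions in each EpH4 library and 1, 2, 2 and 2 in EpRas cells. Abl1, a tyrosine kinase, had 3, 3, 3 and 1 against 5, 4, 6 and 5, and Spint1, a protease inhibitor of epithelia, had 1 in each against 3, 2, 2 and 3. For these 4 genes the lines did not overlap.

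Genes whose lines overlapped are given by their values. Vim, the mesenchymal intermediate filament, had 0 regions in each EpH4 library and 2, 0, 5 and 1 in EpRas libraries. Its EpRas value was highest in a TGF-β-treated library with the longest list. Gata3, a transcription factor of luminal mammary cells, had a promoter peak in 1 of 4 EpH4 and 4 of 4 EpRas libraries. The Notch ligand Jag1 had one in 0 of 4 and 3 of 4, and Id1, a target of the TGF-β family, in 1 of 4 and 3 of 4. Thbs1, a matrix protein that activates latent TGF-β, was the gene of a raised segment with a lower mean, at 1.25 regions in EpH4 and 1.00 in EpRas cells. Acvr2a, Itga4, Ehf, Wt1 and Fgf5 had no region.

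The 2 genes with lower counts were in segment 6 of chromosome 5. Cldn3, a tight junction claudin, had 6, 5, 6 and 6 regions in EpH4 and 4, 3, 3 and 3 in EpRas libraries, and Vsig10, a membrane protein, 3, 2, 4 and 4 against 1 in each. Neither pair of groups overlapped. Vsig10 also holds the highest-scored EpH4-restricted region of chromosome 5, so its count is no separate result. Cldn4 had a promoter peak in 4 of 4 EpH4 and 1 of 4 EpRas libraries. The Cldn3 promoter, by contrast, had one in 3 of 4 EpH4 and 4 of 4 EpRas libraries. Lama5, a laminin chain, had 5.50 and 3.25 regions on average, the kinase Src 6.25 and 4.25, and the transcription factor Cux1 7 and 4, with overlap in each case. Snai1, a transcription factor of epithelial-mesenchymal transition, had promoter peaks in all 8 libraries. Of the EGF receptor ligand genes in segment 4, Areg had 1 region in each of the 8 libraries, and Ereg had a mean of 2.75 in EpH4 and 3.00 in EpRas cells.

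None of the 4 shares of these chromosome sides differed between treated and untreated libraries by the test of 4 against 4. On the centromere side of chromosome 2 the mean share was 2.35% ± 0.80 with TGF-β and 2.44% ± 0.57 without (SD, n = 4 each; exact permutation test, two-sided, p = 0.886). On its telomere side it was 4.45% ± 0.33 and 4.49% ± 0.43 (exact permutation p = 0.771). On chromosome 5 it was 2.48% ± 0.088 and 2.62% ± 0.19 on the centromere side (exact permutation p = 0.257) and 3.95% ± 0.99 and 4.06% ± 1.0 on the telomere side (exact permutation p = 0.686). After Benjamini-Hochberg adjustment over 8 tests these p-values were 0.411 or more. With 70 assignments the smallest p possible is 0.0286, and the groups of 4 hold both lines, whose difference widens the spread. On the centromere side of chromosome 5 the treated libraries lay below the untreated ones within each line, at 2.50% and 2.59% against 2.79% and 2.78% in EpH4 and at 2.40% and 2.42% against 2.48% and 2.42% in EpRas cells. The closest EpRas pair differed only in the third decimal. With a replicate block the exact permutation p of that side was 0.125, the smallest the block allows. By segment, which was added later, the differences were -0.11 to 0.01 points and the smallest exact permutation p was 0.457 (adjusted 0.971 for all 9).

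The promoter share of the peaks was lower with TGF-β on all 4 sides, without passing the correction on any. On the telomere side of chromosome 2 the promoter share was 41.3%, 43.4%, 41.9% and 44.2% without TGF-β (EpH4 replicates 1 and 2, then EpRas) and 38.9%, 40.4%, 35.1% and 38.0% with it. The groups did not overlap, and the difference of -4.55 points had the smallest p the design allows (exact permutation p = 0.0286, adjusted 0.229). The other differences were -4.63 points on the centromere side of chromosome 2 (exact permutation p = 0.171), -5.27 points on that of chromosome 5 (exact permutation p = 0.0571) and -4.10 points on the telomere side of chromosome 5 (exact permutation p = 0.0857). Over all peaks of the genome the difference was -4.64 points, from 41.5% to 36.9%. In EpRas cells alone it was -6.47 to -7.97 points on the 4 sides and in EpH4 cells -0.24 to -2.92. The difference between the lines was not tested. The TGF-β-treated EpRas lists held 27337 and 16833 peaks against 17210 and 13784 without TGF-β, and the part of list length in this was not tested. With lists of equal length the difference on the telomere side of chromosome 2 was -2.25 points (exact permutation p = 0.200). On the other sides the differences with equal lengths were -3.98 points on the centromere side of chromosome 2 (exact permutation p = 0.200), -4.02 on that of chromosome 5 (exact permutation p = 0.0286) and -4.33 on the telomere side of chromosome 5 (exact permutation p = 0.0857). With any 1 of the 4 untreated libraries left out, the p on the telomere side of chromosome 2 was 0.0571 (exact permutation test), and with any 1 treated library left out it was 0.0286.

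Few single sites were restricted to one treatment in both lines. On the 2 chromosomes 11 regions were called in all 4 TGF-β-treated and no untreated library (0.217%, against 0.32% of all regions) and 2 in all untreated and no treated library (0.0395%, against 0.0188%). Among the first was an intron of Cd82, a tetraspanin gene, in segment 2 of chromosome 2. The 2 regions of the second kind were the promoters of Mospd3 and Gsap on chromosome 5. In EpRas cells 360 member regions were gained in both treated and no untreated library (7.10%, against 7.64% of all regions), and 44 were lost (0.868%, against 0.927%). In EpH4 cells 146 were gained (2.88%, against 3.27%) and 86 lost (1.70%, against 1.68%). One 10 Mb bin of 35 separated the treatments, the first of chromosome 5, with TGF-β higher. Over the genome 2.94% of bins were higher and 1.84% lower. Its shares were 0.217%, 0.229%, 0.232% and 0.239% without and 0.240%, 0.250%, 0.252% and 0.250% with TGF-β.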

How the data were processed

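The deposited files were peak lists, 1 per library, in which the authors gave every peak a score from the caller. According to the study's methods and the submitters' processing notes, the authors sequenced FAIRE-seq libraries on an Ion Proton, trimmed reads to 1 length, aligned them by Bowtie2 (mm10), and ran MACS2 2.0.9 under a fixed q limit. What the score measures, and whether a control sample entered, was not given in the sources used here, so scores served as ranks only. Lists hold no read counts. Depth was unknown, and a longer list can reflect depth.

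Sequence was GRCm38.p6 and annotation GENCODE vM21 (basic). A peak within 2 kb of a transcription start site was a promoter peak. Shares are percentages of a library's list. Steps were found by exact least squares, checked on simulated data. Means of 4 against 4 were compared by exact permutation (Python 3.11.15, SciPy 1.17.1). Members, gene lists and tests were chosen with earlier results of these data known. Regions named were the 5 line-restricted regions per line and chromosome with the highest mean percentile, the 3 highest and lowest shifts, the 2 shared regions on either side of the single step, and the listed genes. Alternatives were equal list lengths, higher-scored peaks, each library left out, other units, bins, rankings and promoter limits, and a replicate block. The 136 peaks outside chromosomes 1 to 19 and X were left out of bins and steps. Values of some of the chosen genes and regions are not reported here.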

Additional observations from a re-analysis of the deposited data

Results flagged for a closer look

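Of 46 groups of 4 libraries tested for a value standing apart from the rest, 2 were picked out, and chance picks out about 1 in 20. In the first, the telomere side of chromosome 5 took 4.60% of the peaks in the TGF-β-treated EpH4 replicate 1, against 4.92% to 4.98% in the other 3 EpH4 libraries. This is the EpH4 library with the longest list. In the second, the centromere side held 25.1% of the chromosome 2 peaks in the TGF-β-treated EpH4 replicate 2, against 32.0% to 32.4% in the other 3 EpH4 libraries. This library had the shortest list, with 10821 peaks, and its low share widened the contrast between the lines. Without it the EpRas minus EpH4 difference in this share was 5.95 points, against 7.72 with all libraries. The log2 ratio of the centromere side was then 0.59, against 0.70.

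Among 19 shares and promoter shares, 1 moved in opposite directions with TGF-β in the lines without overlap of treated and untreated libraries. In segment 4 of chromosome 5, from 51.96 to 93.29 Mb, the share of peaks was lower by -0.197 points in EpH4 cells (1.88% and 1.91% untreated, 1.66% and 1.74% treated) and higher by 0.077 points in EpRas cells (1.11% and 1.04% untreated, 1.15% and 1.15% treated). The difference was not tested. With 2 libraries on each side, lack of overlap often arises by chance, so 1 case among 19 is not read as a response.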

How the results depend on the processing

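Of the 10 Mb bins of chromosome 2, 26.3% were lower in EpRas cells, and 15.8% with equal list lengths, promoter or distal peaks alone and 16.2% of 5 Mb bins. The 4 ratios between the lines by chromosome side kept their direction under every alternative, and the 7 borders were met within 2 Mb under 12 of 12. With equal list lengths the log2 ratios were 0.27 for the telomere side of chromosome 2, and -0.22 and -0.72 for the sides of chromosome 5. With higher-scored peaks alone those of chromosome 5 were -0.29 and -0.98. The difference between the lines in the first-side share of chromosome 5 was 8.18 points, 11.1 with higher-scored peaks, 5.23 with promoter and 9.87 with distal peaks. The median shift of the telomere side of chromosome 2 was -3.82 with equal lengths and -6.27 when ranked among shared regions, where that of chromosome 5 was -21.0, and the centromere side of chromosome 2 stood at -2.54 with higher-scored peaks. With 1 library left out the medians ranged from 6.17 (without TGF-β-treated EpRas replicate 1) to 14.8 (without TGF-β-treated EpH4 replicate 2) and 0.089 to 3.12 on chromosome 2, and from -5.83 to -0.49 and -12.4 to -6.95 on chromosome 5. The cause was not tested. A single step in the shift of chromosome 5 was at 53.5 Mb with equal lengths or untreated libraries alone and 31.6 Mb with higher-scored peaks. That of chromosome 2 ranged from 149.3 Mb with equal lengths to 168.2 Mb with higher-scored peaks. The first of 2 steps on chromosome 2 was at 23.6 Mb.

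Line-restricted regions with equal lengths were 41 (EpRas) on chromosome 2, and 10 (EpRas) and 60 (EpH4) on chromosome 5. With higher-scored peaks, fewer peaks being left, they were 59 and 4 on chromosome 2 and 13 and 7 on chromosome 5. Leaving 1 library out relaxes the rule, so the counts can hardly fall. They then ranged from 112 to 195 and 20 to 33 on chromosome 2 and from 30 to 63 and 33 to 56 on chromosome 5. The share over all regions was not counted in any of these settings.

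TGF-β differences in share turned around on the centromere side of chromosome 2 (0.093 points with higher-scored peaks, 0.084 in EpRas cells alone, -0.34 to 0.23 with a library left out) and on its telomere side (0.025 with equal lengths, 0.052 in EpH4 cells alone, -0.19 to 0.089). On chromosome 5 the telomere side ranged from -0.45 to 0.21. The promoter difference on the telomere side of chromosome 2 lost its unadjusted call with equal lengths (-2.25 points) and with higher-scored peaks (-5.81), and ranged from -5.32 to -3.55 with a library left out. That on the centromere side of chromosome 5 gained one with equal lengths (-4.02). With a library left out, those of the centromere side of chromosome 2 (-6.32 to -3.46) and the telomere side of chromosome 5 (-5.32 to -3.14) gained one.

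Replicate numbers were not taken to pair the libraries, since not every pair of groups had a correlation over 0.1. Over 272 bins the deviations of same-numbered libraries correlated at -0.18, -0.074 and -0.096 between untreated EpH4 and the TGF-β-treated EpH4, untreated EpRas and TGF-β-treated EpRas groups, and at 0.16, 0.24 and 0.34 among the latter 3 groups. With a replicate block the promoter difference on the telomere side of chromosome 2 stayed at -4.55 points, and 0 of 8 tests had p under 0.05, against 1 of 8 without it. The smallest p a block allows is 0.125. With the numbers crossed in EpH4, tried after the data were seen, 0 of 8 did.

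At gene loci the difference of EpRas minus EpH4 mean regions turned around with equal lengths for Cd44 (-0.25), Bcl2l1 (-0.25), Ereg (-2.0), Cxcl5 (-1.25) and Actb (-0.50), and with higher-scored peaks for Thbs1 (0.25), Cdk6 (-0.25), Ereg (-0.75) and Cxcl5 (-0.50).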
